A study of Mus musculus with 2 samples.

Results

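Expression of 10 genes known as markers of injured kidney tubule was followed through the nephron: Lcn2, Spp1 and Clu, which encode secreted proteins, Havcr1 and Vcam1, which encode proteins of the cell surface, the transcription factor genes Sox9 and Sox4, and the keratin genes Krt8, Krt18 and Krt19. They were chosen by symbol, each symbol named 1 feature, and together they are 10 of the 31058 features in the count tables. The cells came from the kidneys of female C57Bl/6 mice, 9 weeks old, of the genotype Pax8.rtTA;TetO.Cre;R26.FUCCI2aR, in which a Pax8-driven, doxycycline-dependent transactivator can switch on Cre and a fluorescent cell cycle reporter in tubule cells. All mice had rhabdomyolysis, the breakdown of skeletal muscle, and the library of the CA3 group was set against the library of the vehicle group, with 1 library in each. CA3 inhibits YAP1, a transcriptional coactivator that works through TEAD transcription factors. The stated aim of the series was to find pathways of the response to kidney injury. The sources used here do not give the time after injury, the dose of CA3, the use of doxycycline or the number of animals behind each library, and no uninjured library was analysed here.

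Myoglobin set free from muscle is filtered into the urine and injures tubule cells, most of all in the proximal tubule, which takes up filtered protein. Injured tubule cells are known to lose transport functions and to take on genes of a less specialised epithelium. Havcr1 encodes KIM-1, a receptor that lets proximal tubule cells engulf dead cells, and Lcn2 encodes NGAL, a protein that binds bacterial siderophores and rises in urine after injury. Spp1 encodes osteopontin, a ligand of integrins, Clu encodes clusterin, an extracellular chaperone, and Vcam1 encodes a ligand of the integrin made of the Itga4 and Itgb1 products. Sox9 and Sox4 encode transcription factors of the SRY-box family, and SOX9 is known from repairing proximal tubule. Krt8 and Krt18 products pair into the filaments of simple epithelia, and the Krt19 product joins them in collecting ducts. Several of these genes are also known in uninjured distal segments, so a UMI of one of them is not by itself a sign of injury.

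The CA3 library held 1724 barcodes and the vehicle library 1967, and 1491 CA3 cells and 1766 vehicle cells were kept, with medians of 7571 and 7334.5 UMIs (unique molecular identifiers, 1 for each captured transcript) per cell. The libraries shared 1 barcode. Proximal tubule cells were 1158 CA3 and 1431 vehicle cells, and their 12 markers summed to 27637 CPM in CA3 and 27255 CPM in vehicle cells, where CPM are UMIs per 1000000 non-mitochondrial UMIs. The other tubule classes were smaller, with 6 CA3 and 17 vehicle cells of the thin limb, 44 and 75 of the thick ascending limb, 24 and 25 of the distal convoluted tubule, 33 and 49 of the connecting tubule or principal cells, and 17 and 12 intercalated cells. The distal convoluted tubule with the connecting tubule or principal cells is called the distal nephron below. All classes are rebuilt from markers. The 10 injury genes were kept out of the clustering. Proximal tubule cluster 9 was led by globin genes, but 99.1% of the 7767 globin UMIs lay in 3 of its cells, and 17.7% of its cells had any, against 19% of the other kept cells. In the distal convoluted tubule cluster the immunoglobulin genes Igha, Igkc and Jchain likewise had 20738 of 20741 UMIs in 3 cells. With 1 library in each group no test between groups was possible: intervals below are exact 95% intervals that cover counting error only, so they speak of these libraries and not of the treatments, and in sums over a class fewer cells with a transcript and less of it per cell cannot be told apart.

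Promoters are shown for Krt8 and Krt18, whose products pair and whose transcripts were found in the same cells of the thick ascending limb and distal nephron, and for Sox4, the only one of the 9 listed promoters with the core of the TEAD site. RefSeq promoter windows on GRCm38.p6, with 250 bases before and 50 after each transcript start, were listed for 6 of the 10 genes. Krt8 lies at chr15:102004293-102004592 on the minus strand, Krt18 at chr15:102027966-102028265 on the plus strand, and Sox4 at chr13:28953650-28953949 on the minus strand. Capitals in Krt8 mark overlapping matches to the TATA box letters (TATAAA, read on both strands, from bases 248 and 250 of the window). These matches run across the listed transcript start. Capitals in Sox4 mark the TEAD core (GGAATG, from base 83), and each window is written 5′ to 3′ along its gene.
Krt8: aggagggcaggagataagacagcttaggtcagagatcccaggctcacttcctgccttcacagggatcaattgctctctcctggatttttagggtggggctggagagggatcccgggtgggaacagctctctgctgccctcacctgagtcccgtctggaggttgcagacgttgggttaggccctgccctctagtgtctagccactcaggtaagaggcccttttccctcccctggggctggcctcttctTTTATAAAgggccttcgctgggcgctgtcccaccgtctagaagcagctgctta
Krt18: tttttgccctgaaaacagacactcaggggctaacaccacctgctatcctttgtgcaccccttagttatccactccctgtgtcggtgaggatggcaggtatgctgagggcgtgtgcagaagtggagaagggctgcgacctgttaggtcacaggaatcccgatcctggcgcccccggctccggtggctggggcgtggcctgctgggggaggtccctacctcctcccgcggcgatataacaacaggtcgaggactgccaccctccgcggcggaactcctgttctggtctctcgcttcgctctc
Sox4: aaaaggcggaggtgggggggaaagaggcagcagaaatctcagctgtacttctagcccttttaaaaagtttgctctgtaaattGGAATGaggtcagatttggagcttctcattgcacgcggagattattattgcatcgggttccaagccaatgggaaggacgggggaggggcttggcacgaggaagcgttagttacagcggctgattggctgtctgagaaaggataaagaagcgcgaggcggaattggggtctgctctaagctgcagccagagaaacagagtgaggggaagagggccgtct
On either strand, GGAATG was found in 14.7% of 32851 promoters of this length and TATAAA in 13.6%. The GC box GGGCGG (35.7% of promoters) and the AP-1 site TGANTCA (7.81%) were also searched, and neither was found in the windows shown. The windows of Krt8 and Krt18 point away from each other, and the starts of the genes in GENCODE vM21 lie 23698 bases apart. A match is a run of letters and not a binding site, and its absence says nothing of a factor.

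The genes differed in how many of the 3257 kept cells carried them. Spp1 gave 100765 UMIs and was found in 94.8% of cells, and Krt8 gave 2463 UMIs in 34.1% of cells. Sox4 was found in 497 cells, Clu in 435, Vcam1 in 353 and Krt18 in 220. The other 4 genes were rare: Lcn2 was found in 74 cells, Krt19 in 40, Havcr1 in 30 and Sox9 in 21. In the rare genes a few cells carried much of the signal, since the 3 cells with most UMIs held 61.2% of those of Sox9, 53.4% of those of Havcr1, 47.3% of those of Krt19 and 45.0% of those of Lcn2. For Krt8 this share was 3.98%.

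**Figure D1:**
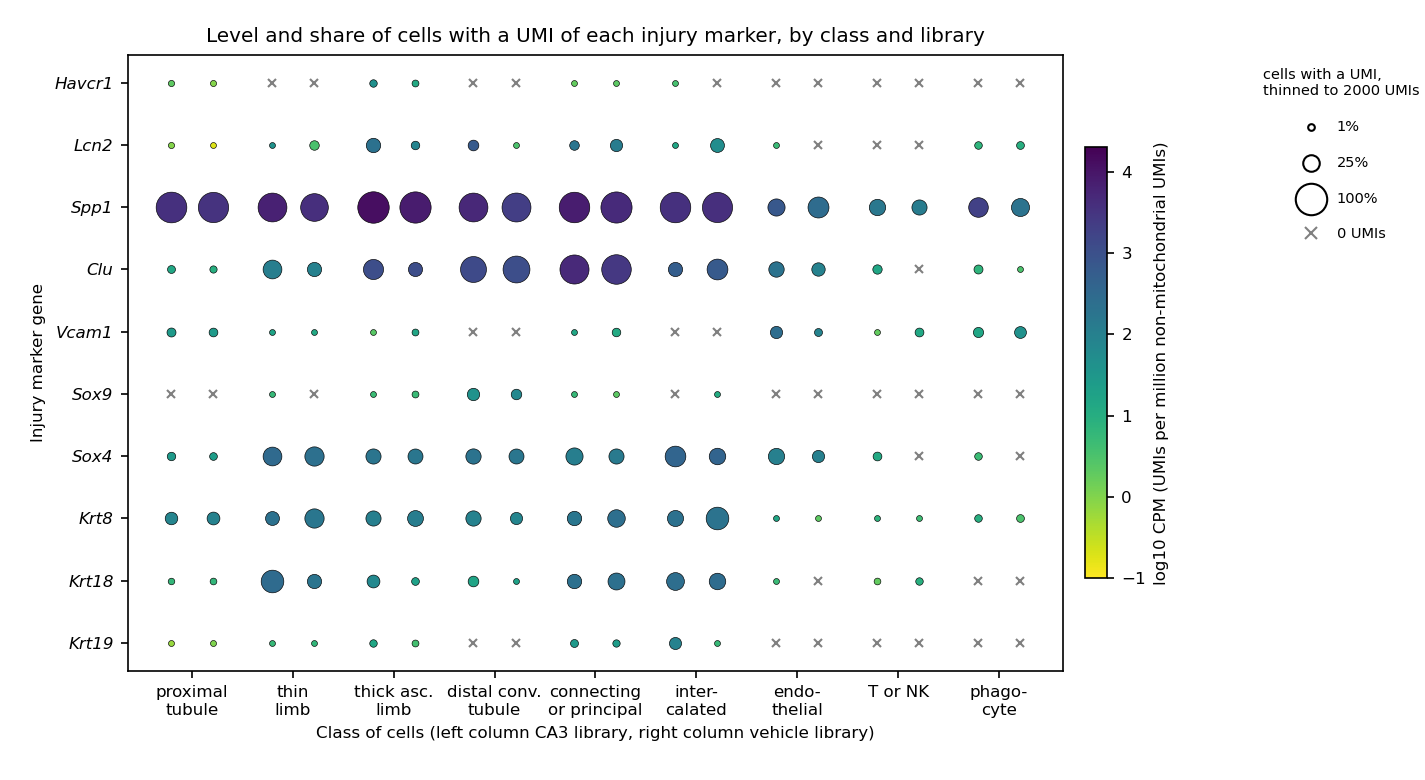
Level (colour, log10 CPM) and share of cells with a UMI after thinning to 2000 UMIs (circle area) of the 10 genes in 9 classes, with the CA3 library on the left of each pair and the vehicle library on the right, and crosses for 0 UMIs. Spp1 was found throughout the nephron, Sox9 had 0 UMIs in the proximal tubule, and Clu was highest in the connecting tubule or principal cells, at 4912 CPM in CA3 and 2704 CPM in vehicle cells.

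Spp1 (chr5:104435118-104441050 in GENCODE vM21 on mm10, plus strand) was the most widely found of the secreted genes. Among the named classes, over both libraries, its level was highest in the thick ascending limb, at 9508 CPM (9333 to 9685), followed by 5686 CPM in connecting tubule or principal cells, 4757 CPM in the thin limb, 3783 CPM in intercalated cells and 3556 CPM in the proximal tubule. The counting intervals of neighbours in this order did not overlap, but 3 cells held 61.2% of the Spp1 UMIs of the thin limb, 52.6% of those of intercalated cells and 40.1% of those of the thick ascending limb. With the 3 richest cells of every class left out, the thick ascending limb and the connecting tubule or principal cells kept their places at 6254 and 4801 CPM, and the proximal tubule followed at 3475 CPM, above the thin limb at 2831 CPM and intercalated cells at 2327 CPM. With every cell thinned to 2000 UMIs, 99.2% of thick ascending limb cells and 93.4% of proximal tubule cells had a Spp1 UMI. T or NK cells served as the class that should lack tubule transcripts, although activated T cells can make osteopontin. Of these cells 23.1% had a Spp1 UMI after thinning and 50% at their own depth, at 144 CPM, and such a share in another class was read as background. At 5978.5 UMIs in the CA3 and 4994 UMIs in the vehicle library their median depth was below the 7920 and 7193 UMIs of the proximal tubule. Counts of near-identical genes are uncertain: 11.3% of the 31-base words in the transcript ends of Spp1 are also found in Gm42793.

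Clu (chr14:65968483-65981547, plus strand) was a gene of the distal nephron, which held 71.0% of its UMIs. It reached 3523 CPM in connecting tubule or principal cells, where 92.7% of cells had a UMI, and 1207 CPM in the distal convoluted tubule, where 89.8% had one. The level in the thick ascending limb, 1119 CPM, overlapped that of the distal convoluted tubule in its interval, but only 44.5% of its cells had a UMI and 3 cells held 74.3% of its Clu UMIs. Proximal tubule cells had Clu at 11.4 CPM (9.92 to 13), close to the 10.5 CPM (4.52 to 20.6) of T or NK cells, so a level above background was not detectable there at this depth.

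Lcn2 (chr2:32384633-32388252, minus strand) lay mostly in the same segments, with 63.1% of its UMIs in the distal nephron and 28.5% in the thick ascending limb. The proximal tubule had 11 Lcn2 UMIs in 8 of 2589 cells. T or NK cells had 0 UMIs in 134 cells, an upper limit of 4.82 CPM. Among connecting tubule or principal cells 31.7% had a UMI and among thick ascending limb cells 18.5%. Among the named classes the distal convoluted tubule had the highest Lcn2 level, 249 CPM, but 124 of its 126 UMIs came from 1 CA3 cell, and with the 3 richest cells of every class left out the connecting tubule or principal cells came first. Neutrophils also make Lcn2, and of the 6 neutrophil markers the thick ascending limb had 1 UMI in CA3 and 0 in vehicle cells, and the distal nephron 2 and 4 UMIs.

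Havcr1 (chr11:46735080-46779578, plus strand) was the surface gene with the fewest cells. It was found in 23 proximal tubule cells, 14 of 1158 CA3 cells (1.21%) and 9 of 1431 vehicle cells (0.629%), with 19 and 10 UMIs. The most in 1 of these cells was 4 UMIs in a CA3 cell and 2 UMIs in a vehicle cell. Another 29 UMIs lay in 2 thick ascending limb cells, 19 in a CA3 cell of 53032 UMIs and 10 in a vehicle cell of 37839 UMIs. Both cells carried the segment markers Slc12a1 (196 UMIs in the CA3 cell and 23 in the vehicle cell) and Umod (462 and 353 UMIs). The CA3 cell had 40.1% mitochondrial UMIs and also held 22 UMIs of Slc34a1 and 11 of Lrp2, proximal tubule genes, and the vehicle cell held 10 UMIs of Kdr, 4 of Pecam1 and 3 of Emcn, endothelial genes, and whether either is a doublet was not tested. No other thick ascending limb cell had a Havcr1 UMI. By these cells the thick ascending limb had the highest level of the named classes, 24.4 CPM, and with the 3 richest cells of every class left out the proximal tubule came first. Of the words in its transcript ends, 7.22% are shared with Timd2 or Gm4926, so lone UMIs of Havcr1 are uncertain.

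Vcam1 (chr3:116109949-116129688, minus strand) was, among the named classes, highest in endothelial cells, at 138 CPM (111 to 169), in 21.2% of cells. Endothelial cells present VCAM-1 to leukocytes. The proximal tubule followed at 27.3 CPM (25.1 to 29.7) in 295 of 2589 cells, a level that overlapped the 27.3 CPM (16.6 to 42.1) of mononuclear phagocytes. Both were above the 5.23 CPM (1.43 to 13.4) of T or NK cells. However, 3 cells held 65.6% of the endothelial and 60% of the phagocyte Vcam1 UMIs. With the 3 richest cells of every class left out, endothelial cells had 48.8 CPM and the proximal tubule 25.2 CPM. Mononuclear phagocytes then had 11.2 CPM and T or NK cells 1.33 CPM. Distal convoluted tubule cells had 0 Vcam1 UMIs, as did intercalated cells. A cluster of 11 cells that no marker list named held 476 of the 1208 Vcam1 UMIs in all kept cells.

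Sox9 (chr11:112782224-112787760, plus strand) had 0 UMIs in 2589 proximal tubule cells, which by the rule of 3 counts allows a share of cells with a UMI of up to 0.259% in the CA3 and 0.210% in the vehicle library. Its highest named class was the distal convoluted tubule, with 29 UMIs in 7 of 49 cells, 8 UMIs in 4 CA3 cells and 21 UMIs in 3 vehicle cells. A single vehicle cell of the unnamed cluster held another 29 UMIs.

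Sox4 (chr13:28948919-28953713, minus strand) was found in every tubule class. Among the named classes its level was highest in intercalated cells, at 396 CPM (340 to 458), then 261 CPM in the thin limb, 174 CPM in the distal convoluted tubule and 172 CPM in the thick ascending limb, and the levels of the distal convoluted tubule, thick ascending limb and connecting tubule or principal cells could not be ordered within their intervals. The proximal tubule stood at 25.3 CPM (23.1 to 27.6) against 9.15 CPM (3.68 to 18.9) in T or NK cells, and 9.89% of its cells had a UMI at their own depth and 3.21% after thinning, against 2.99% of T or NK cells after thinning.

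Krt8 (chr15:101996698-102004482, minus strand) was the keratin found in the most cells. It was found in 34.4% of proximal tubule cells at their own depth and 13.3% after thinning, against 3.73% and 0% of T or NK cells. Its level there was 86.2 CPM (82.1 to 90.4), between 115 CPM in the thick ascending limb and 83.1 CPM in the distal convoluted tubule, and it overlapped the last of these in its interval. Connecting tubule or principal cells had 216 CPM, intercalated cells 206 CPM and the thin limb 183 CPM, with overlapping intervals.

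Krt18 (chr15:102028180-102032027, plus strand) was at 265 CPM in intercalated cells, 231 CPM in connecting tubule or principal cells and 227 CPM in the thin limb, also with overlapping intervals. Proximal tubule cells had it at 6.29 CPM (5.23 to 7.50) in 3.63% of cells, against 3.92 CPM (0.809 to 11.5) in 2.24% of T or NK cells, so a level above background was not detectable. Of the words in its transcript ends 10.4% are shared with the gene models Gm5200 and Gm7943. Krt19 (chr11:100140810-100148665, minus strand) had 37 of its 93 UMIs in 14 connecting tubule or principal cells and 26 in 3 intercalated cells, 24 of those in 1 CA3 cell.

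Within the proximal tubule the genes did not share 1 pattern. Of the 10 clusters, 3 reached a score of 0.5 on the S1 marker list (7, 9 and 10), the score being the mean level of the list's genes relative to the cluster highest in each, 1 reached it on the S3 list (18) and the others, all scoring higher on the S1 than on the S3 list, reached it on neither and are called between. Spp1 was lowest in cluster 8, at 870 CPM in CA3 and 844 CPM in vehicle cells, and highest in CA3 cells of cluster 0, at 6762 CPM, where vehicle cells had 4358 CPM. Over the 3 S1-like clusters Spp1 was at 3343 CPM in CA3 and 3814 CPM in vehicle cells (ratio 0.876, 0.855 to 0.898), and over the clusters between the bands at 4049 and 3154 CPM (1.28, 1.26 to 1.31), with 1422 and 2715 CPM in the S3-like cluster, so the libraries did not differ in 1 direction along the tubule. Cluster 8 was led by Npl and Gatm, cluster 0 by Tmigd1 and the lipid hydroxylase genes Cyp4a14 and Cyp4a10. Sox4 was highest in cluster 12 of CA3 cells, at 57.9 CPM against 30.9 CPM in vehicle cells, and in cluster 7 of vehicle cells, at 66.7 CPM, with 51.9 CPM in CA3 cells. Both clusters were led by immediate early genes such as Cyr61, Fosb and Jun. A list of 16 immediate early and heat shock genes, called the immediate early list below, summed to 14514 and 17491 CPM in CA3 cells of clusters 7 and 12, and to 13077 and 18786 CPM in vehicle cells, against 4083 CPM or less in the other clusters. These clusters were also deep, with median UMIs between 12129.5 and 15812, and the part of depth and of the immediate early state in the Sox4 level was not tested. Krt8 was highest in cluster 12 among CA3 cells, at 134 CPM against 171 CPM in vehicle cells, and in the S3-like cluster 18 among vehicle cells, with 11 UMIs in 11 CA3 cells (111 CPM) and 79 UMIs in 33 vehicle cells (303 CPM), while Vcam1 there had 0 UMIs in CA3 and 1 UMI in vehicle cells. A single vehicle cell of 32319 UMIs held 33 of these 79 Krt8 UMIs.

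**Figure D2:**
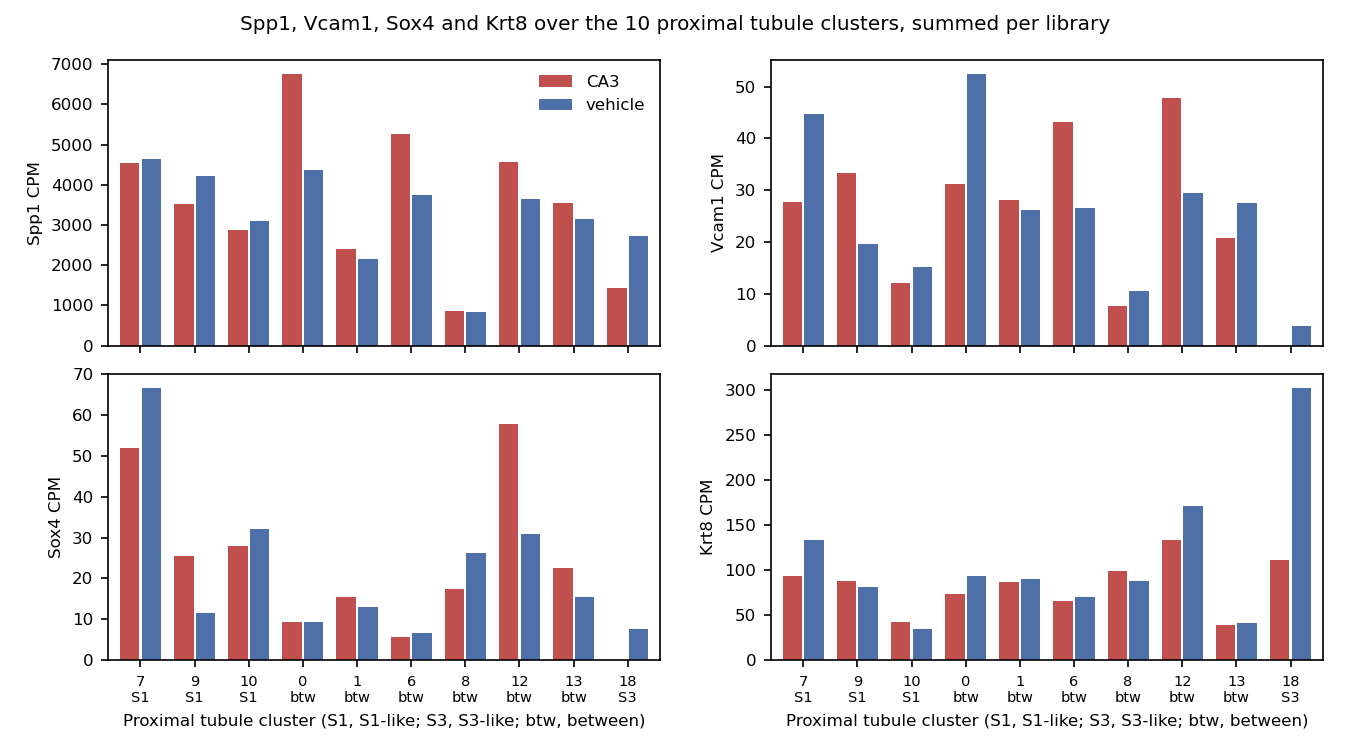
Summed level (CPM, from 0) of Spp1, Vcam1, Sox4 and Krt8 in the 10 proximal tubule clusters, with CA3 bars left of vehicle bars and clusters ordered S1-like, between, S3-like. Spp1 ran between 844 and 6762 CPM, Sox4 was highest in cluster 12 of the CA3 library and cluster 7 of the vehicle library, and Krt8 in clusters 12 and 18. In cluster 18, 33 of the 79 vehicle Krt8 UMIs came from 1 cell.

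Proximal tubule cells with a Sox4 UMI at 2000 UMIs differed from those without in the immediate early list. It stood at 9389 CPM in 45 CA3 cells with Sox4 and 2954 CPM in CA3 cells without, and at 4974 CPM in 38 vehicle cells with Sox4 and 3200 CPM in vehicle cells without. This was not particular to Sox4. In cells with and without Krt8 the list stood at 4809 and 2967 CPM in CA3 and at 4845 and 2997 CPM in vehicle. Cells with Spp1, Vcam1 or Krt18 also had more of it in both libraries. Cells with Vcam1 had more of 40 other tubule injury genes in sum, 1920 against 1284 CPM in CA3 and 1968 against 1448 CPM in vehicle cells. After thinning Clu was found in 2.36% of proximal tubule and 3.73% of T or NK cells, so its UMI cannot be read as a trait of the cell. The thinned shares of Sox4, 3.21% and 2.99%, were also close, so the same limit holds for a thinned Sox4 UMI. The 34 CA3 and 27 vehicle cells with Clu had less of the immediate early list, 1103 against 3269 CPM in CA3 and 1685 against 3277 CPM in vehicle cells. These are sums over cells of 1 library each and carry no test.

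Counts of genes per cell were then compared. At their own depth, 599 of 1158 CA3 proximal tubule cells (51.7%, 48.8 to 54.6) and 694 of 1431 vehicle cells (48.5%, 45.9 to 51.1) had a UMI of at least 2 of the 10 genes. With every cell thinned to 2000 UMIs, which left out 3 CA3 cells, the shares were 22.3% (20 to 24.9) of CA3 and 20.4% (18.3 to 22.6) of vehicle cells. For at least 3 genes they were 2.25% of CA3 and 1.82% of vehicle proximal tubule cells after thinning, and 16.3% and 12% at their own depth. Since nearly every cell had Spp1, at least 2 of the other 9 genes were found in 16.6% of CA3 and 12.2% of vehicle cells at their own depth. In the thick ascending limb, after thinning, at least 2 genes were found in 72.7% (57.2 to 85) of CA3 and 49.3% (37.6 to 61.1) of vehicle cells. Distal nephron cells reached 84.2% in CA3 and 87.8% in vehicle cells. Among T or NK cells 3.33% in CA3 and 2.27% in vehicle had at least 2 genes and none had 3. The most genes in 1 cell was 9, in a CA3 connecting tubule or principal cell of 57621 UMIs that lacked Havcr1.

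**Figure D3:**
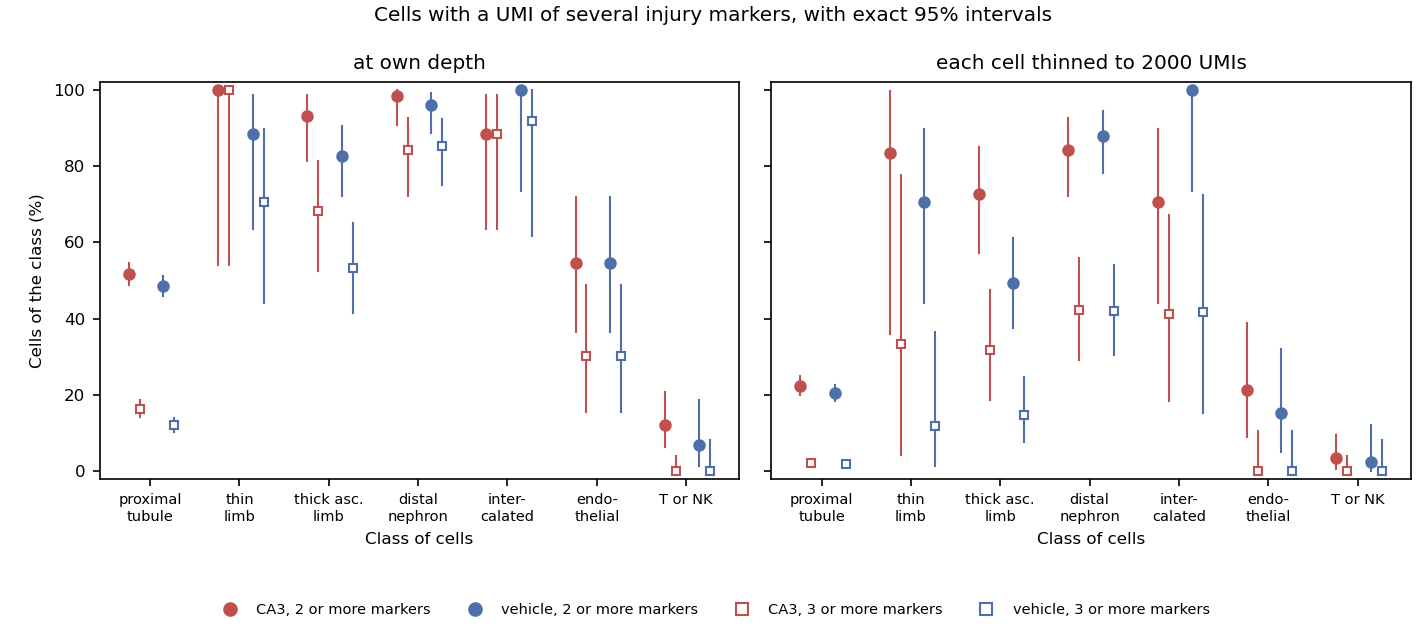
Share of cells (%) with a UMI of at least 2 (filled circles) or at least 3 (open squares) of the 10 genes, CA3 in red on the left and vehicle in blue, with exact 95% intervals, at the cells' own depth and after thinning to 2000 UMIs. In the proximal tubule the thinned shares of at least 2 genes were 22.3% in CA3 and 20.4% in vehicle cells, against 84.2% and 87.8% in the distal nephron.

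Pairs of genes were counted over both libraries and set beside the number that the product of the separate shares gives. Depth raises both genes of a pair in the same cells, so the thinned counts are the ones to read. Among proximal tubule cells 49 had both Krt8 and Krt18 at their own depth, where the shares give 32.3, but after thinning 4 cells had both, where the shares give 3.45. Sox4 with Krt8 was found in 17 thinned proximal tubule cells, where the shares give 11. Vcam1 with Krt8 was found in 17, where the shares give 15.8. In the thick ascending limb 6 of the 8 thinned cells with Krt18 also had Krt8, where the shares give 1.75, and in the distal nephron 10 of 21 did, where the shares give 4.49. Havcr1 at own depth was found with Vcam1 in 7 of 23 proximal tubule cells, where the shares give 2.62, a count that depth can raise. After thinning 5 CA3 and 4 vehicle proximal tubule cells had a Havcr1 UMI, too few to read this pair. No test was made of these counts.

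The CA3 library was next set against the vehicle library. Over all kept cells, 5 of the 10 genes differed by at least 1.5 times, 3 higher and 2 lower in CA3, where 13.9% of 13966 features did (6.87% higher and 7.05% lower). The 3 higher were Lcn2, with 335 UMIs in CA3 and 194 UMIs in vehicle cells (ratio 2.03, 1.70 to 2.44), Krt19, with 54 and 39 UMIs (1.63, 1.06 to 2.53), and Havcr1, with 41 and 32 UMIs (1.51, 0.927 to 2.48). The 2 lower were Vcam1, with 362 UMIs in CA3 and 846 UMIs in vehicle cells (0.504, 0.444 to 0.571), and Sox9, with 17 and 63 UMIs (0.318, 0.174 to 0.550). Single cells weighed heavily in all 5, and for Havcr1 3 cells held 39 of its 73 UMIs. Leaving out, in both libraries, the 3 cells richest in the gene, the ratio was 1.03 for Lcn2, 1.12 for Krt19, 0.879 for Vcam1, 0.675 for Sox9 and 1.88 for Havcr1. A pair of vehicle cells gave 223 and 198 of the 846 Vcam1 UMIs, and both were in the unnamed cluster. Without the unnamed cluster the Vcam1 ratio was 1.12 and the Sox9 ratio 0.686, and with cells kept only from 1000 genes and up to 25% mitochondrial UMIs the Havcr1 ratio was 0.811. The median log2 ratio of the 10 genes was -0.01, and of all features tested -0.02.

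In the proximal tubule 7 of the 10 genes had at least 20 UMIs, and 1 of the 7 was past 1.5 times, higher in CA3, where 7.28% of 11701 features were (3.75% higher and 3.53% lower). That gene was Havcr1, at 2.07 CPM in CA3 and 0.950 CPM in vehicle cells (ratio 2.17, 0.962 to 5.24), and the interval holds 1. Clu was at 13.7 CPM in CA3 and 9.31 CPM in vehicle cells (1.47, 1.12 to 1.94), near the background level given above. Spp1 was at 3752 CPM in CA3 and 3384 CPM in vehicle cells (1.11, 1.09 to 1.13). Krt8 was the lower one, at 77.7 CPM in CA3 and 93.6 CPM in vehicle cells (0.830, 0.752 to 0.914), and it was at 0.854 without the 3 highest cells of either library. Vcam1 was at 27.4 CPM in CA3 and 27.3 CPM in vehicle cells (1.005, 0.845 to 1.19), Sox4 at 27.3 and 23.5 CPM (1.16, 0.972 to 1.39) and Krt18 at 6.20 and 6.37 CPM (0.974, 0.672 to 1.41). For these last genes differences of 1.5 times or more lie outside the intervals. Without clusters 7 and 12 the Havcr1 ratio was 1.23.

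**Figure D4:**
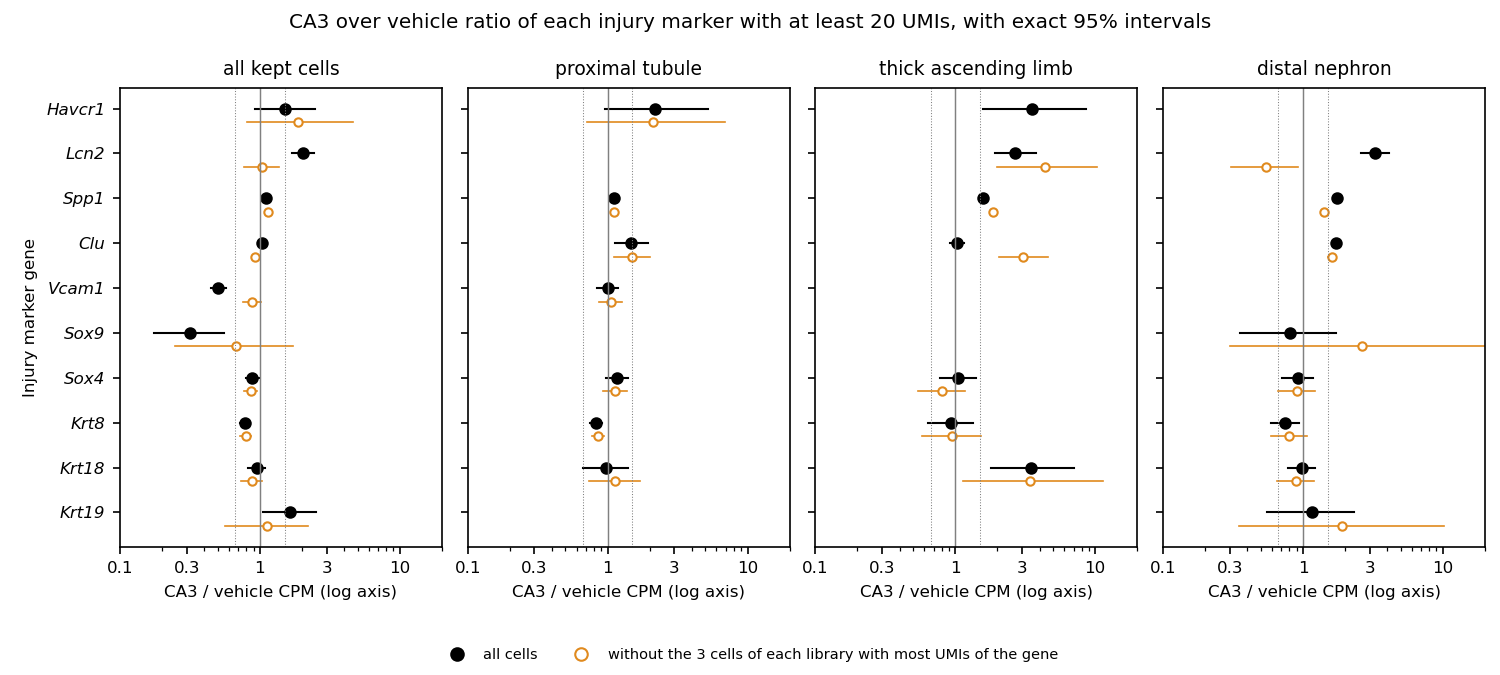
CA3 over vehicle ratio of CPM (log axis) with exact 95% intervals for genes with at least 20 UMIs, over all kept cells and in 3 segments, where filled points are all cells, open points leave out the 3 richest cells of either library, and dotted lines mark 1.5 times in either direction. In the distal nephron Lcn2 lay at 3.27 with all cells and at 0.540 without those cells.

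The thick ascending limb showed 4 of 7 genes past 1.5 times, all higher in CA3, where 25.5% of 7360 features were past it and 11.2% were higher. These were Havcr1 (3.56, 1.57 to 8.57, all from the 2 cells named above), Lcn2 at 215 CPM in CA3 and 80.1 CPM in vehicle cells (2.69, 1.92 to 3.78), Spp1 at 12538 CPM in CA3 and 7890 CPM in vehicle cells (1.59, 1.53 to 1.65), and Krt18 at 67.7 CPM in CA3 and 19.4 CPM in vehicle cells (3.50, 1.80 to 7.04). After thinning Lcn2 was found in 18.2% of CA3 and 4% of vehicle cells, Krt18 in 13.6% and 2.67%, and Clu, whose summed ratio was 1.03 (0.920 to 1.16), in 38.6% and 17.3%. The class was not the same in the libraries. Cluster 13, which also carried proximal tubule genes, gave 3 of the 44 CA3 cells and 25 of the 75 vehicle cells, and 1 of these 3 was the CA3 cell of 53032 UMIs, with 1450 UMIs of Spp1, 346 of Clu and 42 of Lcn2. The 12 proximal tubule markers, all detected, summed to 581 CPM in CA3 and 2856 CPM in vehicle cells of the class, and the immediate early list to 3914 and 6876 CPM. Without cluster 13 the markers stood at 247 CPM in CA3 and 449 CPM in vehicle cells, the ratios were 0.886 for Lcn2, 0.887 for Spp1 and 0.287 for Clu, and Krt18 was at 3.35. Of the vehicle UMIs then left, the cell of 37839 UMIs held 40 of 52 for Lcn2 and 427 of 631 for Clu. With the whole class kept but the 3 richest cells of either library left out, the ratio was 4.36 (1.98 to 10.3) for Lcn2 and 3.05 (2.06 to 4.57) for Clu, so the direction of both turned on which cells were left out. With cells kept only from 1000 genes and up to 25% mitochondrial UMIs, the ratio was 0.431 for Lcn2 and 0.570 for Spp1. The part of the immediate early list was not tested.

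The Spp1 medians per cell differed from the sums. The median thick ascending limb cell had 7636 CPM of Spp1 in the CA3 library (lowest 1293, highest 45652) and 3497 CPM in the vehicle library (lowest 247, highest 63748). Without cluster 13 the medians were 7576 CPM in CA3 and 2971 CPM in vehicle cells. In the vehicle library 2174 of the 6108 Spp1 UMIs came from the cell of 37839 UMIs, and with the 3 richest cells of either library left out the ratio of the whole class was 1.87. The ranges of cells overlapped widely, and cells of 1 library are not replicates. Proximal tubule medians were 2490 CPM in CA3 and 2200 CPM in vehicle cells, both with cells at 0.

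**Figure D5:**
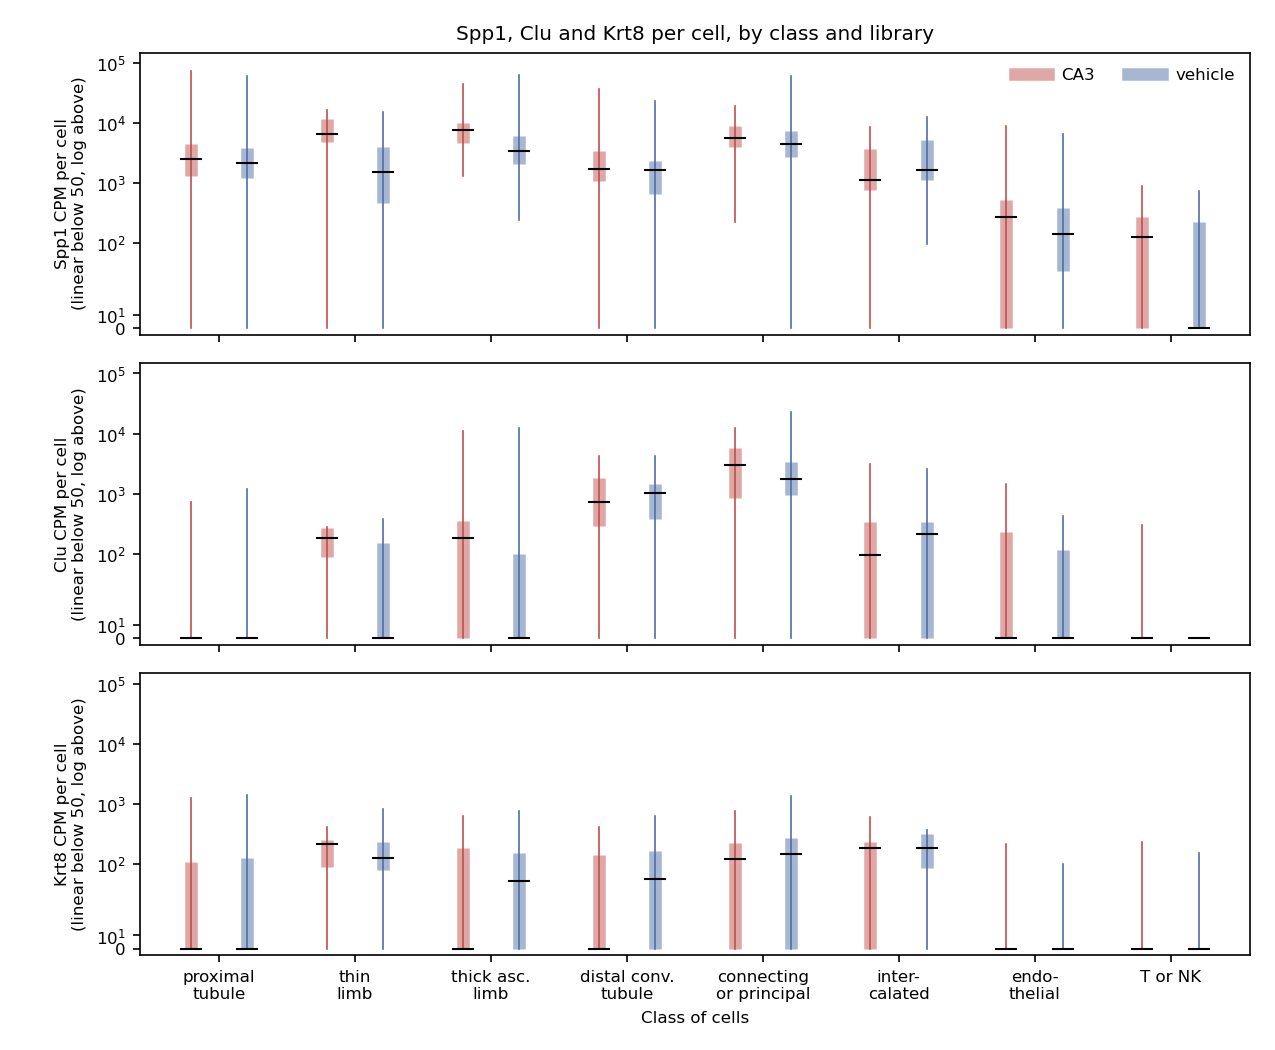
Spp1, Clu and Krt8 per cell (CPM, linear below 50 and logarithmic above), by class, with CA3 left of vehicle, where black bars are medians, boxes run between the quartiles and lines between the lowest and highest cell. The Spp1 medians of the thick ascending limb were 7636 CPM in CA3 and 3497 CPM in vehicle cells.

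In the distal nephron 3 of 8 genes were past 1.5 times, all higher in CA3, where 18.6% of 8912 features were past it and 8.01% were higher. Spp1 was at 6938 CPM in CA3 and 3954 CPM in vehicle cells (1.75, 1.69 to 1.83), and Clu at 3979 and 2302 CPM (1.73, 1.64 to 1.82). Within the connecting tubule or principal cells Clu had a median of 2958 CPM per CA3 cell and 1742 CPM per vehicle cell, and its summed ratio was 1.82 (1.72 to 1.92). Of 7 genes in those cells 2 were past 1.5 times, Clu and Spp1, both higher in CA3, where 21.6% of 8140 features were past it and 7.71% were higher. Median depth was lower in the CA3 cells of the distal nephron, 11739 UMIs against 17621 UMIs in vehicle cells, and with every cell thinned to 2000 UMIs the ratio was 1.04 for Spp1 and 1.01 for Clu. Thinning gives every cell the same weight, while a sum is weighted by depth. Lcn2 had 220 UMIs in CA3 and 114 UMIs in vehicle cells (3.27, 2.59 to 4.13), of which 124 and 72 UMIs came from 2 CA3 cells, and without the 3 highest cells of either library it was at 0.540 (0.304 to 0.920). Krt8 was lower in CA3, at 150 CPM against 201 CPM in vehicle cells (0.747, 0.590 to 0.939). The mix of cells differed: principal cell cluster 14 gave 113988 of 726834 non-mitochondrial UMIs in CA3 and 412609 of 1229711 in vehicle cells. There Krt8 was at 360 CPM in CA3 and 337 CPM in vehicle cells. It was also higher in CA3 in the distal convoluted tubule and connecting tubule cluster 6, and lower in connecting tubule clusters 11 and 20. The part of this mix in the ratios of Krt8, Spp1 and Clu was not tested. Sox9, Sox4, Krt18 and Krt19 had ratios between 0.809 and 1.15 whose intervals hold 1.

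Smaller classes are given as values. Thin limb cells, 6 in CA3 and 17 in vehicle, had 6439 CPM of Spp1 in CA3 and 3782 CPM in vehicle cells. A CA3 cell of 115815 UMIs held 494 of the 1125 Spp1 UMIs of the CA3 thin limb. It also held 176 UMIs of Slc34a1 and 134 of Umod, markers of other segments, and whether it is a doublet was not tested. Krt19 in intercalated cells had 25 UMIs in CA3, 24 of them in 1 cell, and 1 UMI in vehicle cells (17.2, 2.82 to 708). Intercalated cells had 3753 CPM of Spp1 in CA3 and 3827 CPM in vehicle cells, 392 and 402 CPM of Sox4, 214 and 193 CPM of Krt8, and 255 and 279 CPM of Krt18, with all 4 intervals of the ratio holding 1. In endothelial cells Vcam1 was at 267 CPM in CA3 (53 UMIs in 6 of 33 cells) and 83.9 CPM in vehicle cells (40 UMIs in 8 of 33 cells), a ratio of 3.18 (2.07 to 4.93) that without the 3 highest cells of either library was 3.33 (0.960 to 12.9). Pericyte or fibroblast markers in that class differed too, with 3 UMIs of 2 of the 10 genes (15.1 CPM) in CA3 and 529 UMIs of 6 (1109 CPM) in vehicle cells, while Col1a1, Col3a1, Dcn and Lum were at 0 in both, and their part was not tested. In this class 3 of 4 genes were past 1.5 times, all higher in CA3 (Vcam1, Spp1 and Clu), where 35.5% of 5979 features were and 14.5% were higher.

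The proteins that bind these markers were followed through a list of 12 genes, integrin subunits, the hyaluronan and osteopontin receptor Cd44, and the endocytic receptors Lrp2, Cubn, Lrp8 and Slc22a17. Among proximal tubule cells 8 had at least 20 UMIs, and 1 was past 1.5 times higher in CA3 and 1 lower, where 3.75% of all features were higher and 3.53% lower. Itgb3, a subunit of a classical osteopontin receptor, had 14 UMIs in CA3 and 6 UMIs in vehicle cells (2.67, 0.964 to 8.48). Itgb6, whose product pairs with that of Itgav, was at 113 CPM in CA3 and 207 CPM in vehicle cells (0.546, 0.507 to 0.588). Lrp2, encoding megalin, which takes up filtered NGAL, was at 2477 CPM in CA3 and 2765 CPM in vehicle cells (0.896, 0.880 to 0.912), and Itgav at 91.2 and 99.1 CPM (0.919). Itga4 and Cd44, below 20 UMIs there, were singled out after their values were seen. Itga4, needed for VCAM-1 binding, had 3 UMIs in CA3 and 4 UMIs in vehicle proximal tubule cells, whereas T or NK cells held 253 in CA3 and 95 in vehicle. Cd44 had 5 UMIs in CA3 and 2 UMIs in vehicle proximal tubule cells. In the thick ascending limb, where 14.3% of all features were lower and 11.2% higher, 3 of 7 of the list were lower and 0 higher. They were Lrp2 (0.153, 0.0857 to 0.255), Cubn (3 UMIs in CA3 and 22 in vehicle cells, 0.255, 0.0489 to 0.850) and Itgb6 (0.666, 0.486 to 0.901), of which the first pair are also proximal tubule markers. In the distal nephron (all features: 8.01% higher and 10.6% lower) 1 of 7 was higher, Slc22a17, a receptor of NGAL (1.5, 0.904 to 2.49), and 1 lower, Cubn (0.609, 0.25 to 1.35).

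Of 40 other tubule injury genes, 30 were tested in the proximal tubule, 5 of them higher and 2 lower in CA3 (all features: 3.75% higher and 3.53% lower), with a median log2 ratio of -0.01 against 0.01 for all features. Cdkn1a, encoding the cell cycle inhibitor p21, had 75 UMIs in CA3 and 193 UMIs in vehicle cells (0.445, 0.336 to 0.584). Higher were Krt7, another keratin of simple epithelia, with 33 and 18 UMIs (2.10, 1.15 to 3.96), Tmsb10, encoding an actin-binding peptide, with 73 and 43 UMIs (1.94, 1.32 to 2.90), Fgb, a fibrinogen chain, with 69 and 43 UMIs (1.84, 1.24 to 2.75), and Anxa3, an annexin, with 24 and 14 UMIs (1.96, 0.975 to 4.10). In the thick ascending limb, with the difference in cluster 13 given above, 7 of 26 were higher and 6 lower (all features: 11.2% higher and 14.3% lower), with Cdkn1a at 20 UMIs in CA3 and 6 UMIs in vehicle cells (6.24, 2.42 to 19) and the stress factor gene Atf3 at 46 and 220 UMIs (0.392, 0.279 to 0.540). Tmsb10 (3.10, 1.96 to 4.97) and the annexin gene Anxa1 (2.81, 1.28 to 6.39) were also higher there, and Pax2, a transcription factor gene of the developing kidney (0.449, 0.218 to 0.856), was lower. Few cells carried some of these, since without the 3 richest cells of either library Anxa1 had 2 UMIs in CA3 and 4 UMIs in vehicle cells (0.997, 0.0902 to 6.96) and Cdkn1a had 2 and 1 (3.88, 0.202 to 229), while Tmsb10 was at 4.08 (2.14 to 8.10). In the distal nephron 6 of 27 were higher and 5 lower (all features: 8.01% higher and 10.6% lower), with Cp, encoding ceruloplasmin, at 20 and 5 UMIs (6.77, 2.46 to 23.1) and Atf3 at 32 and 152 UMIs (0.356, 0.235 to 0.524). Cdh6, a cadherin gene, had 4 UMIs in CA3 and 23 UMIs in vehicle cells (0.294, 0.0740 to 0.861), and the stress gene Nupr1 had 3 and 20 UMIs (0.254, 0.0483 to 0.856). Without the 3 richest cells of either library Cp had 0 UMIs in both, Nupr1 0 in CA3 and 5 in vehicle cells, and Cdh6 1 and 4 UMIs (0.436, 0.00886 to 4.41), so these differences rest on few cells. Of 8 keratin and filament partner genes, 1 of 4 tested in the proximal tubule was higher (Krt7), 1 of 5 in the thick ascending limb was lower (Vim, the mesenchymal filament gene, with 4 and 21 UMIs) and 0 of 5 in the distal nephron were past 1.5 times, where Krt7 had 437 UMIs in CA3 and 557 UMIs in vehicle cells (1.33, 1.17 to 1.51). Krt7 and Vim, and Itgb6 of the binding list, are also among the 40 other tubule injury genes, so their calls are counted in both lists.

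Across 7 classes and both libraries, 14 points in all that share depth and preparation, the level of Spp1 (log2 of CPM with 1 added) went most closely with that of Krt8 among the 10 genes (Pearson r = 0.911), Clu with Sox4 (0.897) and Krt18 with Krt19 (0.850), and Vcam1 went least with Sox9 (-0.741). Among 7414 other genes the closest to Krt8 were Tmprss2 (0.967) and Pax2 (0.962), to Krt19 Avpr2 (0.965) and Ptges, to Krt18 Atp6v1f (0.927) and Cab39l, to Clu Shisa4 (0.974) and Lurap1, to Spp1 Smdt1 (0.944) and Ggnbp1, and to Sox4 Ddit4l (0.959) and Erlec1. For the rarer genes they were Slc34a2 (0.948) and Egfl6 for Havcr1, Mt1 (0.886) and Atp6v0e for Lcn2, Klhl5 (0.926) and Dgkh for Vcam1, and Pamr1 (0.951) and Mrps25 for Sox9. These correlations describe class patterns over few points, and the closest genes are the highest of the 7414 searched. For Havcr1 each thick ascending limb point came from 1 cell. For Lcn2 the highest point, the CA3 distal convoluted tubule, had 124 of 125 UMIs from 1 cell.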

How the data were processed

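Single cells were measured with the 10x 3' assay and sequenced on a NextSeq500, per the labels' protocols. The deposited counts are UMI counts per gene and cell, made by the authors with Cell Ranger 3.0.1 on mm10, per the submitters' processing notes, and no normalization was applied before deposit as far as the whole numbers show.

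Cells were kept from 500 genes upward and up to 50% mitochondrial UMIs. Scrublet marked 4 cells (3 CA3 and 1 vehicle), which were removed, so doublets may remain. Leiden clustering in scanpy 1.11.5 used 2000 variable genes without the 10 markers, 30 components and 15 neighbours, at resolution 1 (20 clusters) and, outside the proximal tubule, at resolution 2 (24 clusters). Clusters were scored on 21 marker lists, of which the erythroid and urothelium lists were never used to name a cluster. Connecting tubule or principal cell cluster 11 scored highest on the urothelium list (0.628), followed by connecting tubule (0.575). Mononuclear phagocyte cluster 15 scored highest on the erythroid list (1), followed by macrophage (0.337). The margins between list scores were set after the data were seen. For the 11 unnamed cells no list was far enough ahead of the next. Kept cells ranged over 3507 to 115815 UMIs in the CA3 and 3784 to 112355 UMIs in the vehicle library, and 3 UMIs are worth 0.245 and 0.208 CPM.

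Counts were summed per class and library. Ratios carry exact conditional binomial intervals, levels Poisson intervals and shares Clopper-Pearson intervals, all at 95% (scipy 1.17.1). Genes with under 20 UMIs over both libraries have no ratio call, and 1.5 times was the size past which a gene was called. Thinning drew 2000 UMIs per cell. Named besides the 10 markers are genes among the 6 of a list with the largest log2 ratios in a class, at 20 UMIs or more, and the 2 genes closest to a marker by correlation among those reaching 50 CPM. The markers and lists were chosen with earlier results of these data known. Alternatives tried were other cell filters, clusterings, scalings and UMI minimums, and leaving out cells or clusters.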

Additional observations from a re-analysis of the deposited data

How the results depend on the processing

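Counts of markers past 1.5 times moved with the settings. Over all kept cells 5 were past it, against 1 without the 3 richest cells of either library, 1 after thinning to 2000 UMIs and 3 without the unnamed cluster. In the proximal tubule 1 was, against 0 under a stricter filter (from 1000 genes, up to 25% mitochondrial UMIs), 2 with the markers in the clustering, 3 at resolution 0.5, 2 after thinning, 0 at a minimum of 50 UMIs, 2 without cluster 9 and 0 without clusters 7 and 12. In the thick ascending limb 4 were, against 2 with the markers in the clustering, 1 after thinning, 2 at 50 UMIs and 2 without cluster 13. The falls at 50 UMIs follow from the rule itself. It leaves out Havcr1, with 29 UMIs in each of these segments, and Krt18, with 43 UMIs in the thick ascending limb. Shares over all features were taken at the main setting only. In the distal nephron 3 were, against 5 under the stricter filter and 0 after thinning. Leaving out a cluster was chosen after seeing the data.

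The share of proximal tubule cells with at least 2 markers was 51.7% in CA3 and 48.5% in vehicle cells, against 58.7% and 53.1% under the stricter filter, 22.3% and 20.4% after thinning, 48.2% and 45.0% without clusters 7 and 12, and 16.6% and 12.2% without Spp1. With no filter it was 45.6% in vehicle cells.

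Of 335 alternative values of 32 ratios, 269 lay within the counting interval of the reported ratio, 57 outside it, and 9 more were ratios past 1.5 times that turned to the other side of 1. These were Havcr1 over all cells at 0.811 under the stricter filter, Vcam1 over all cells at 1.12 without the unnamed cluster, Lcn2 in the distal nephron at 0.540 without the 3 richest cells, and Lcn2 and Spp1 in the thick ascending limb at 0.431 and 0.570 under the stricter filter, 0.928 and 0.906 with the markers in the clustering, and 0.886 and 0.887 without cluster 13. The cause was not tested. Smaller ratios also crossed 1, such as Clu in the thick ascending limb (1.03, and 0.287 without cluster 13) and Sox4 over all cells (0.884, and 1.22 after thinning). The class with the highest level was the same in 81 of 90 alternatives.

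No paired analysis was possible because each group has 1 library. Rare markers are limited by depth, and no interval covers the spread between animals.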

Other observations

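The cluster that no marker list named held 4 CA3 and 7 vehicle cells and was led by Vcam1, the interferon-induced genes Gbp2, Cxcl10 and Iigp1, the complement gene C3, and the chemokine gene Ccl2. Over both libraries it had 3562 CPM of Vcam1, 591 CPM of Sox4, 254 CPM of Sox9 and 82.3 CPM of Havcr1, and 0 CPM of Krt19. These sums lean on a pair of deep vehicle cells, which held 223 and 198 of the cluster's 476 Vcam1 UMIs. A vehicle cell of 45622 UMIs held 1994 Spp1, 253 Clu, 223 Vcam1, 50 Sox4 and 29 Sox9 UMIs and no Havcr1 UMI. Another vehicle cell, of 51490 UMIs, held 10 Havcr1, 198 Vcam1, 787 Spp1 and 151 Cxcl10 UMIs together with 82 UMIs of the thick ascending limb transporter gene Slc12a1. In the 4 CA3 cells, of 3809, 9022, 7590 and 3750 UMIs, Vcam1 reached at most 2 UMIs, and Ccl2 and Cxcl10 had 0 UMIs. The CA3 cell of 3809 UMIs held 15 UMIs of Col1a1 and 18 of Dcn, both pericyte or fibroblast markers. With 11 cells in all, no comparison of the libraries was made.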
